A study of Rattus norvegicus with 15 samples.

Results

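The genes described here are 29 genes of blood vessel cells, chosen by name from a list of endothelial, lymphatic endothelial and pericyte symbols among the 8621 genes of the deposited tables. They were measured by RNA-seq in the adrenal medulla of 15 rats, 1 library per animal, with 5 animals in each of 3 groups. WT rats were wildtype and 7 to 9.5 months old, HYP samples were the hyperplastic medulla of MENX rats 4 to 5 months old, and PCC samples were the pheochromocytomas of MENX rats 7 to 9.5 months old. All were of the strain labelled Sprague-Dawely. MENX rats carry a germline mutation of *Cdkn1b*, which encodes the cell cycle inhibitor p27, in every cell, blood vessels included. Age and stage cannot be told apart between HYP and PCC, nor age and genotype between HYP and WT. The cortex was removed by macrodissection, and the methods divide the tumors by adrenal weight into PCC and advanced PCC, which the sample labels do not give, so the 5 PCC samples were kept as 1 group.

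The tables list a gene only where the authors had called it changed between 2 groups of these same samples. Being listed, and being called again, is therefore not independent evidence of a change. Of the 29 genes, 27 were in the table of PCC vs. WT, 16 in that of HYP vs. WT and 13 in that of PCC vs. HYP. Only *Apln*, *Emcn*, *Pgf*, *Rgs5* and *Tek* were listed in all 3 tables, 17 were in 2 and 7 in 1, and 22 had values in all 15 samples. Another 24 genes named in the rule, among them the endothelial junction genes *Pecam1* and *Cdh5*, were not analysed here.

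Endothelial cells line blood and lymph vessels, and pericytes sit on the outside of capillaries in the same basement membrane. VEGF ligands bind the receptors *Flt1*, *Kdr* and *Flt4* to drive sprouting, and angiopoietins bind the receptor *Tek*, with *Tie1* as its partner, to hold vessels quiet or to loosen them. Sprouting tip cells are known for *Esm1* and *Apln*, and pericytes for *Rgs5* and the proteoglycan *Cspg4*. The adrenal medulla is supplied by fenestrated capillaries that take up catecholamines, and pheochromocytomas are known as richly vascular tumors.

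The reads counted on genes ranged from 16315018 to 23831269 per sample, with medians of 19749571 in WT, 16868712 in HYP and 18753812 in PCC. Every member that was listed passed the filter on low counts. Levels are given as CPM, read counts scaled by library size, on 1 TMM scale for the 15 samples, and overlap between groups is judged on that scale. Log2 fold changes are given with their standard errors (SE), from a separate edgeR quasi-likelihood fit for each comparison. The 2 scales differ by at most 0.14 in log2, for PCC vs. HYP. All genes of the chromaffin marker list with values, 9 of 12, were detected in every sample. The adrenal cortex markers with values, 10 of 15, were also detected in every sample although the cortex had been removed.

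The sequences upstream of 4 members are shown: *Rgs5* and *Pgf* had the largest increases, and *Kdr* and *Flt1* are VEGF receptors whose ratio differed between PCC and WT. Each is the 250 bases before the gene's start in RefSeq (GRCr8), written 5′ to 3′ on the gene's strand, for *Rgs5* (chr13:84380827-84381076, plus strand), *Pgf* (chr6:110557748-110557997, minus strand), *Kdr* (chr14:32571813-32572062, plus strand) and *Flt1* (chr12:12333180-12333429, plus strand). Capitals mark matches, on either strand, to the ETS core CCGGAA, the hypoxia response element cores ACGTG and GCGTG, and the GATA core AGATAA.
Rgs5: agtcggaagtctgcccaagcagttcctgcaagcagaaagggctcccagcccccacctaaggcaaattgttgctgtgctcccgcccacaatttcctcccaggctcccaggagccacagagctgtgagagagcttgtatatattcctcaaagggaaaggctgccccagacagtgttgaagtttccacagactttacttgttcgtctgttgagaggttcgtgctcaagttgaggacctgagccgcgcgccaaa
Pgf: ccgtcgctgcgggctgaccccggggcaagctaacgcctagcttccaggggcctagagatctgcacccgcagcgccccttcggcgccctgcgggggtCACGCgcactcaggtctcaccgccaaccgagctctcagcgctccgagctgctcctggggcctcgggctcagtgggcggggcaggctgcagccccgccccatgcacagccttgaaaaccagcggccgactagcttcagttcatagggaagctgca
Kdr: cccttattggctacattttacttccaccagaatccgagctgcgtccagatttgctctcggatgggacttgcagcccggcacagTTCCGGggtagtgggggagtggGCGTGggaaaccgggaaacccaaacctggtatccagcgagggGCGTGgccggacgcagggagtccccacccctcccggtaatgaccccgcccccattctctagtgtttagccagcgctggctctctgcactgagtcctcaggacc
Flt1: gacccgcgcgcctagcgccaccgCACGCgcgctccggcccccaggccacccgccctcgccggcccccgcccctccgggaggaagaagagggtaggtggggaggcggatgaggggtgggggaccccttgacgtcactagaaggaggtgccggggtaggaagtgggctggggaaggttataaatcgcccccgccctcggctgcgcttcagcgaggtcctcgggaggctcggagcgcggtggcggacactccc

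The window of *Rgs5* held no match to these letters. *Pgf* held GCGTG at position -154 and *Flt1* at position -227, both on the opposite strand, counting from -1 at the base before the start. *Kdr* held the ETS core at -167 on the opposite strand and GCGTG at -145 and -103. RefSeq gave such a window for 21 of the 29 members. GCGTG was in 5 of them, 23.8% (*Esm1*, *Flt1*, *Icam1*, *Kdr* and *Pgf*), and in 27.2% of all 27457 windows of the same length. The ETS core was in 2 members (*Icam1* and *Kdr*), 9.52% against 13.4% of all windows. ACGTG was in 1 member (*Tm4sf1*), 4.76% against 16.9%, and AGATAA in 1 (*Erg*), 4.76% against 10.05%. None of the motifs was more frequent in the members' windows than in all windows, and *Esm1*, *Flt1*, *Icam1*, *Kdr* and *Pgf*, which share GCGTG, included genes called higher and genes called lower.

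The first comparison asks how the vascular genes of the tumors differ from those of normal medulla. In PCC vs. WT, a small group of members rose by large factors and most endothelial receptors and surface genes fell. Of 27 members tested, 9 were called higher (33.3%) and 15 lower (55.6%), where 46.7% of all 7001 genes tested were called higher and 38.5% lower. In either direction 24 members were called (88.9%), against 85.2% of all genes tested. The groups did not overlap for 15 members (55.6%), against 65.7% of all genes. The median log2 fold change of the members was -0.93, and that of all genes tested was 0.44. The 9 higher calls were kept with the listed reads, or all reads on genes, as the scale (against 50.6% and 50.3% of all genes). With scaling to the listed total, the 15 lower calls went down to 4 (*Emcn*, *Flt4*, *Tek* and *Vegfc*), against 15.7% of all genes. With scaling to the library totals, they went down to 7 (the same 4 with *Icam1*, *Kdr* and *Prox1*), against 22.7% of all genes.

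HYP vs. WT asks which of these changes are present in the hyperplastic medulla. Of 16 members tested, 5 were called higher (31.3%) and 8 lower, against 39.5% and 32.5% of the 4108 genes tested. Together, 13 members were called (81.3%), against 72.1% of all genes, and 12 (75.0%) did not overlap between groups, against 56.3%. The median log2 fold change of the members was -0.60, and that of all genes tested -0.37. Of the 8 lower calls, 1 (*Tek*) was kept with scaling to the listed total and 3 (*Kdr*, *Tek* and *Vegfc*) with scaling to the library totals. Without HYP replicate 5 or WT replicate 1 or 2, 5 members were called lower, against 19.1%, 23.1% and 26.1% of all genes. HYP vs. WT and PCC vs. WT share their WT samples, so the values of both are given side by side and their likeness is not counted.

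PCC vs. HYP compares the tumor stage with hyperplasia. Of 13 members tested, 4 were called higher (30.8%) and 2 lower (15.4%), against 21.8% and 22.6% of the 3148 genes tested, and 6 were called in all (46.2%), against 44.4%. The groups did not overlap for 7 (53.8%), against 54.5% of all genes. The median log2 fold change was -0.87 for the members and 0.43 for all genes tested. With DESeq2, 7 members were called lower (against 44.1% of all genes tested). In edgeR without PCC replicate 2 or HYP replicate 3 or 4 there were 0 lower calls, against 8.48%, 6.16% and 5.87% of all genes. In each of these fits 7 members were lower at an unadjusted *p* under 0.05, which being listed as changed makes likely.

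**Figure D1:**
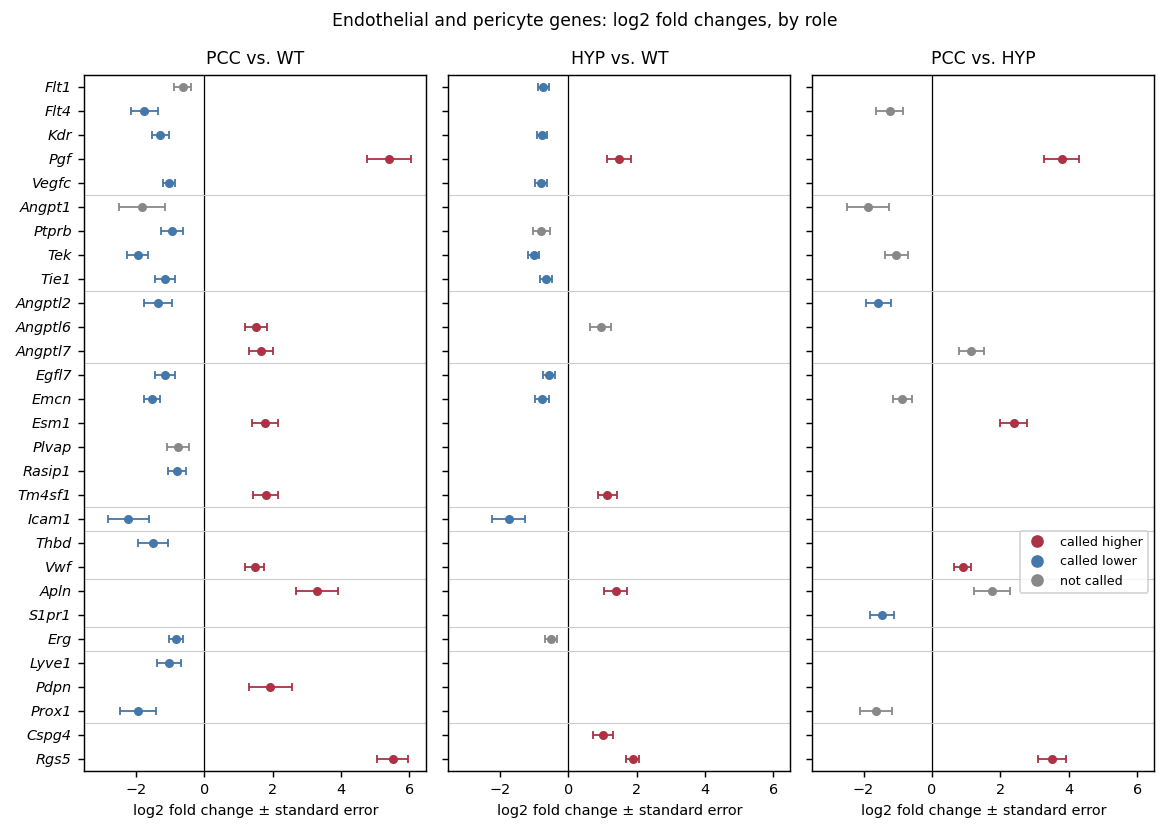
Log2 fold changes (x axis, point, with the SE as bars) of the members listed in each comparison, 1 row per gene, grouped by role between the grey lines. Red points were called higher, blue points lower and grey points were not called at an adjusted *p* under 0.05. *Rgs5* and *Pgf* lie farthest to the right in PCC vs. WT, at 5.51 and 5.41, and *Icam1* farthest to the left at -2.22.

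Of all members, the pericyte gene *Rgs5* had the largest log2 fold change in PCC vs. WT. *Rgs5*, a regulator of G protein signaling that marks pericytes, was at 21.8, 24.7, 20.7, 31.1 and 19.6 CPM in the 5 WT samples, 52.9, 100.1, 106, 89.6 and 88.1 CPM in the 5 HYP samples, and 1098, 611, 1111, 2220.3 and 471 CPM in the 5 PCC samples. The 3 groups were in the order WT, HYP, PCC with no overlap, and the PCC samples spread from 471 to 2220.3 CPM, with replicate 4 highest. In WT, HYP and PCC, the mean levels were 23.6 ± 4.59, 87.4 ± 20.7 and 1102 ± 687 CPM (SD, n = 5 each), 46.7-fold higher in PCC than in WT. The log2 fold change was 5.51 ± 0.45 (SE, adjusted *p* = 7.76e-05) in PCC vs. WT. It was 1.88 ± 0.20 (SE, adjusted *p* = 0.000287) in HYP vs. WT and 3.50 ± 0.41 (SE, adjusted *p* = 0.00164) in PCC vs. HYP.

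*Cspg4*, which encodes the pericyte proteoglycan NG2, was listed for HYP vs. WT only. It was at 47.7, 61.5, 51.7, 36.5 and 15.7 CPM in WT and 67.4, 86.5, 61.4, 94.6 and 122 CPM in HYP. WT replicate 2 was just above the lowest HYP sample, so the groups overlapped. edgeR gave a log2 fold change of 1.02 ± 0.30 (SE, adjusted *p* = 0.0373). The call was lost without HYP replicate 2, 4 or 5 or WT replicate 1, 3 or 4, with an adjusted *p* of up to 0.0889.

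The other pericyte markers listed in PCC vs. WT had smaller log2 fold changes than *Rgs5*. In PCC vs. WT, the receptor gene *Pdgfrb* had a log2 fold change of 0.92, adjusted *p* = 0.0202, and the Notch receptor gene *Notch3* one of 2.27, adjusted *p* = 0.00247. *Kcnj8*, a potassium channel gene of pericytes, was lower in PCC vs. WT (-1.04, adjusted *p* = 0.0403) and in HYP vs. WT (-1.20, adjusted *p* = 0.00906). Of the 6 pericyte markers, 4 were listed in PCC vs. WT, of which 3 were called higher and 1 lower. *Rgs4*, a close relative of *Rgs5* that is not specific to pericytes, was also higher in PCC vs. WT (4.46, adjusted *p* = 9.62e-05) and in HYP vs. WT (2.01, adjusted *p* = 6.07e-05).

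Of the 2 members listed that encode VEGF family ligands, 1 rose and the other fell. *Pgf*, placental growth factor, which binds the receptor *Flt1*, was at 1.27, 1.55, 0.899, 2.36 and 0.543 CPM in the 5 WT samples, 3.52, 3.92, 5.07, 3.37 and 2.73 CPM in the 5 HYP samples, and 37.3, 31.0, 43.8, 155 and 22.7 CPM in the 5 PCC samples. No group overlapped another, and the highest PCC sample, replicate 4, was at 155 CPM where the next was at 43.8 CPM. In WT, HYP and PCC, the mean levels were 1.32 ± 0.692, 3.72 ± 0.868 and 58.0 ± 55.0 CPM (SD, n = 5 each). On the log2 scale, the change was 5.41 ± 0.64 (SE, adjusted *p* = 0.000223) in PCC vs. WT, 1.49 ± 0.34 (SE, adjusted *p* = 0.0115) in HYP vs. WT and 3.79 ± 0.50 (SE, adjusted *p* = 0.00269) in PCC vs. HYP. Without PCC replicate 4 it was 4.64 in PCC vs. WT and 3.04 in PCC vs. HYP. *Vegfa*, the VEGF-A gene, which is no member, was at means of 877 ± 96.2 in WT, 637 ± 76.4 in HYP and 1300.5 ± 924 CPM in PCC (SD, n = 5 each). It was not called in HYP vs. WT (-0.47, adjusted *p* = 0.051) or in PCC vs. HYP (0.86, adjusted *p* = 0.181).

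*Vegfc*, the ligand of the lymphatic receptor *Flt4*, was at 45.4, 36.5, 42.8, 40.9 and 37.5 CPM in the 5 WT samples, 22.5, 21.4, 33.2, 22.0 and 18.5 CPM in the 5 HYP samples, and 25.8, 15.1, 17.3, 24.7 and 18.3 CPM in the 5 PCC samples. All WT samples were above all MENX samples, and HYP and PCC covered nearly the same range. Fitted by edgeR, the log2 fold change was -0.79 ± 0.17 (SE, adjusted *p* = 0.00886) in HYP vs. WT and -1.04 ± 0.18 (SE, adjusted *p* = 0.00136) in PCC vs. WT.

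**Figure D2:**
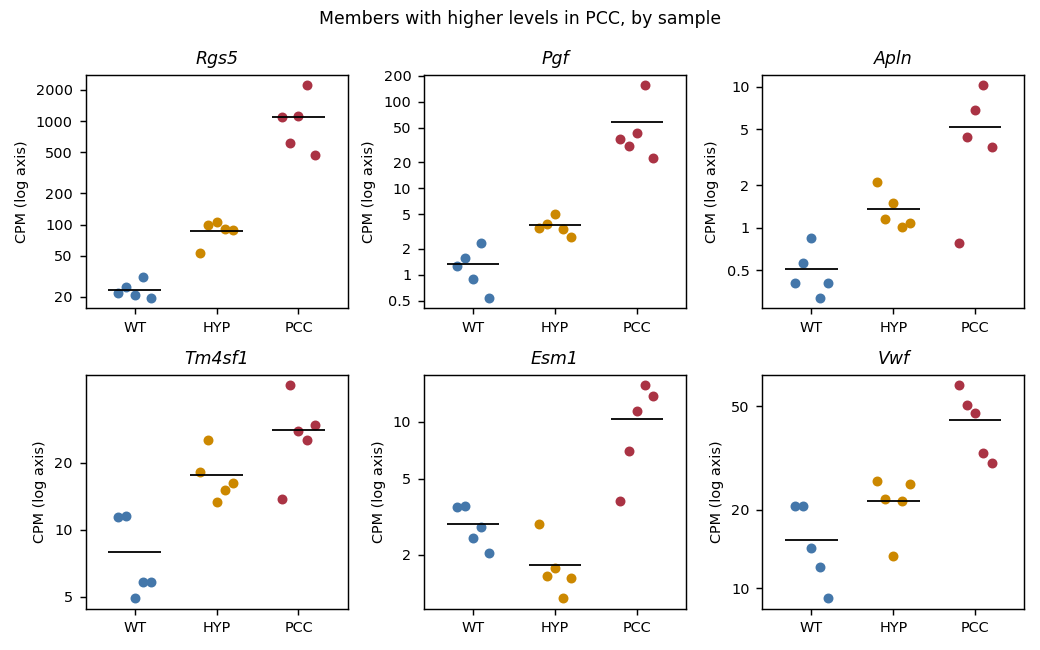
CPM of 6 members in each sample (points, log y axes that differ between genes) by group, with the group mean as a line (n = 5 each). *Rgs5* and *Pgf* step up from WT to HYP to PCC without overlap, while *Esm1* and *Vwf* are higher in every PCC sample than in any WT or HYP sample.

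Of the VEGF receptors, *Kdr* and *Flt1* fell in HYP vs. WT, and *Kdr* and *Flt4* in PCC vs. WT. *Kdr* (VEGFR2), the main signaling receptor of blood endothelium, was at 214, 205, 179, 206 and 242 CPM in the 5 WT samples, 118, 110.1, 152, 126 and 110.2 CPM in the 5 HYP samples, and 47.4, 70.3, 106, 78.5 and 134 CPM in the 5 PCC samples. No WT sample overlapped HYP or PCC, and 4 of the 5 PCC samples were below every HYP sample, while PCC replicate 5, at 134 CPM, was within the HYP range. The log2 fold change was -0.77 ± 0.15 (SE, adjusted *p* = 0.00554) in HYP vs. WT and -1.29 ± 0.25 (SE, adjusted *p* = 0.00274) in PCC vs. WT.

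*Flt1* (VEGFR1), which binds VEGF-A and placental growth factor, was at 87.4, 97.5, 74.1, 95.5 and 91.1 CPM in the 5 WT samples, 40.4, 56.2, 65.5, 55.4 and 53.9 CPM in the 5 HYP samples, and 33.0, 41.1, 79.7, 65.1 and 74.9 CPM in the 5 PCC samples. WT and HYP did not overlap, but PCC replicates 3 and 5 were within the WT range. edgeR gave a log2 fold change of -0.72 ± 0.15 (SE, adjusted *p* = 0.00789) in HYP vs. WT. In PCC vs. WT it was -0.63 ± 0.24 (SE, adjusted *p* = 0.0708), with an unadjusted normal 95% interval of -1.10 to -0.15, which missed the threshold.

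*Flt4* (VEGFR3), known from lymphatic endothelium and from fenestrated capillaries, was at 209, 180.5, 316, 411 and 376 CPM in the 5 WT samples, 198, 141, 283, 207 and 154 CPM in the 5 HYP samples, and 143, 52.6, 108, 31.6 and 118 CPM in the 5 PCC samples. The PCC samples were all below the WT samples, and PCC replicates 2 and 4 were lowest. On the log2 scale, the change was -1.74 ± 0.40 (SE, adjusted *p* = 0.00611) in PCC vs. WT and -1.24 ± 0.39 (SE, adjusted *p* = 0.0728) in PCC vs. HYP, where PCC replicate 1 overlapped the HYP range.

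**Figure D3:**
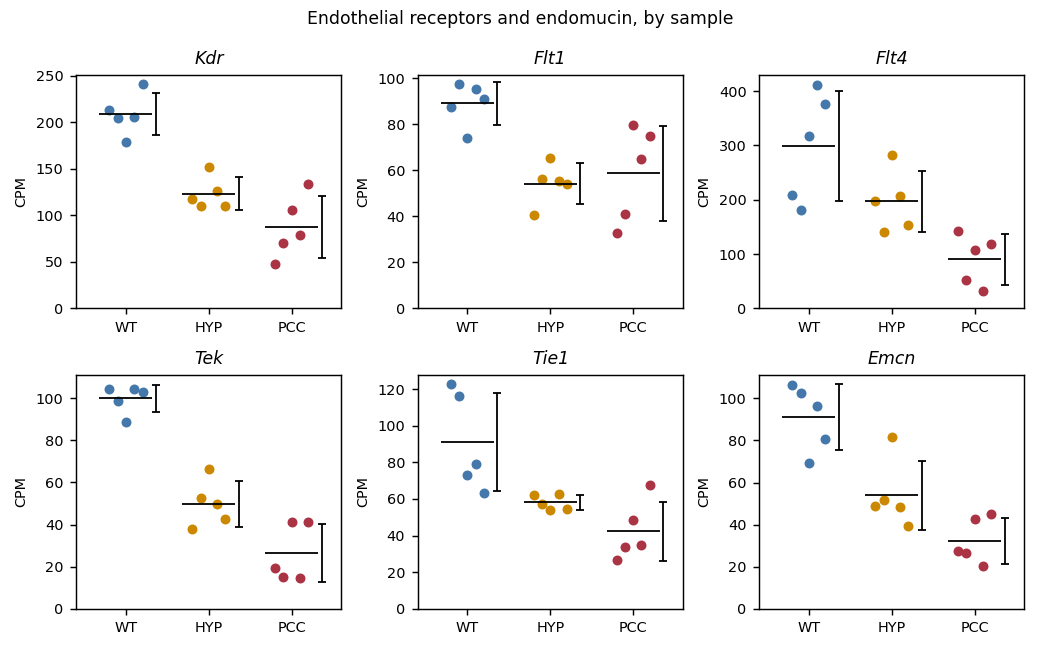
CPM of 6 endothelial genes in each sample (points, linear y axes from 0) by group, with the mean as a line and the SD as a bar (n = 5 each). *Kdr* and *Tek* are lower in every HYP and PCC sample than in any WT sample, while *Flt1* in PCC spreads from 33.0 to 79.7 CPM and overlaps both other groups.

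All 4 angiopoietin-Tie genes listed had lower means in PCC than in WT, and 3 of them were called. *Tek*, the angiopoietin receptor Tie2, was at 104, 98.8, 88.9, 104 and 103 CPM in the 5 WT samples, 37.9, 52.6, 66.2, 49.8 and 42.7 CPM in the 5 HYP samples, and 19.4, 15.3, 41.3, 14.6 and 41.1 CPM in the 5 PCC samples. The WT samples were within a narrow range and above every MENX sample, and in PCC replicates 3 and 5 were at about the level of HYP and replicates 1, 2 and 4 below it. In WT, HYP and PCC, the mean levels were 99.9 ± 6.55, 49.9 ± 10.8 and 26.3 ± 13.7 CPM (SD, n = 5 each). Fitted by edgeR, the log2 fold change was -1.95 ± 0.32 (SE, adjusted *p* = 0.00101) in PCC vs. WT and -1.01 ± 0.16 (SE, adjusted *p* = 0.00205) in HYP vs. WT. In PCC vs. HYP it was -1.05 ± 0.33 (SE, adjusted *p* = 0.0756), which missed the threshold.

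*Tie1*, the orphan partner of Tie2, was at 123, 116, 73.3, 79.3 and 63.1 CPM in the 5 WT samples, 62.3, 57.1, 53.9, 62.7 and 54.5 CPM in the 5 HYP samples, and 26.9, 33.8, 48.7, 34.8 and 67.5 CPM in the 5 PCC samples. WT replicates 1 and 2 were highest, HYP was below WT with no overlap, and PCC replicate 5 was within the WT range. The log2 fold change was -1.14 ± 0.29 (SE, adjusted *p* = 0.0107) in PCC vs. WT and -0.65 ± 0.18 (SE, adjusted *p* = 0.0277) in HYP vs. WT, where the call was lost without HYP replicate 5 or WT replicate 1 or 2 (adjusted *p* up to 0.0633).

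*Ptprb* encodes VE-PTP, the phosphatase that opposes Tie2. In WT, HYP and PCC, the mean levels were 67.0 ± 16.9, 39.2 ± 11.7 and 35.6 ± 17.5 CPM (SD, n = 5 each). edgeR gave a log2 fold change of -0.93 ± 0.32 (SE, adjusted *p* = 0.0469) in PCC vs. WT, a call that, among the fits leaving out 1 sample, was kept only without PCC replicate 3 or WT replicate 1, and -0.79 ± 0.25 (SE, adjusted *p* = 0.0543) in HYP vs. WT. *Angpt1*, the ligand that activates Tie2, was at 4.86, 3.61, 5.82, 8.04 and 20.4 CPM in WT, with replicate 5 far above the others, and at 4.70, 0.610, 2.94, 0.386 and 3.46 CPM in PCC. Its log2 fold change was -1.82 ± 0.68 (SE, adjusted *p* = 0.0609) in PCC vs. WT and -1.88 ± 0.61 (SE, adjusted *p* = 0.079) in PCC vs. HYP, and both missed the threshold. *Angpt2*, the context-dependent Tie2 ligand, is no member but belongs to the same system, and was higher in PCC vs. WT (2.06, adjusted *p* = 0.00442) and in HYP vs. WT (2.07, adjusted *p* = 0.000323).

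The angiopoietin-like genes encode secreted proteins related to angiopoietins that do not bind Tie2. *Angptl2* was at 37.2, 33.9, 70.6, 33.7 and 83.9 CPM in the 5 WT samples, 38.8, 65.2, 70.4, 60.3 and 47.3 CPM in the 5 HYP samples, and 25.2, 12.2, 29.8, 7.71 and 27.9 CPM in the 5 PCC samples. PCC was below both other groups with no overlap, and PCC replicates 2 and 4 were lowest. On the log2 scale, the change was -1.35 ± 0.40 (SE, adjusted *p* = 0.0233) in PCC vs. WT, lost without PCC replicate 2 or WT replicate 3 or 5 (adjusted *p* up to 0.0586). It was -1.58 ± 0.36 (SE, adjusted *p* = 0.025) in PCC vs. HYP, lost without PCC replicate 2 or HYP replicate 2, 3 or 4 (adjusted *p* up to 0.0708). *Angptl6* and *Angptl7* were low and rose in PCC vs. WT, from means of 1.27 ± 0.382 to 3.74 ± 1.13 CPM and of 1.57 ± 0.204 to 5.09 ± 2.66 CPM (SD, n = 5 each). Their log2 fold changes were 1.51 ± 0.32 (SE, adjusted *p* = 0.0045) and 1.66 ± 0.36 (SE, adjusted *p* = 0.00501). *Angptl6* in HYP vs. WT (0.95, adjusted *p* = 0.0509) and *Angptl7* in PCC vs. HYP (1.15, adjusted *p* = 0.07) missed the threshold.

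Both tip cell genes, *Esm1* and *Apln*, were higher in PCC than in WT. *Esm1*, endocan, a secreted proteoglycan of sprouting endothelium, was at 3.55, 3.61, 2.43, 2.81 and 2.04 CPM in the 5 WT samples, 2.9, 1.55, 1.69, 1.18 and 1.51 CPM in the 5 HYP samples, and 3.83, 7.02, 11.3, 15.5 and 13.6 CPM in the 5 PCC samples. All PCC samples were above all WT and HYP samples, although PCC replicate 1, at 3.83 CPM, was only just above the highest WT value, 3.61 CPM. Fitted by edgeR, the log2 fold change was 1.79 ± 0.38 (SE, adjusted *p* = 0.00418) in PCC vs. WT and 2.38 ± 0.40 (SE, adjusted *p* = 0.00702) in PCC vs. HYP. *Apln*, the peptide ligand apelin, was at 0.405, 0.568, 0.846, 0.319 and 0.407 CPM in the 5 WT samples, 2.10, 1.16, 1.5, 1.01 and 1.07 CPM in the 5 HYP samples, and 0.784, 4.42, 6.81, 10.3 and 3.72 CPM in the 5 PCC samples. HYP was above WT with no overlap, and PCC replicate 1 was within the WT range while the other 4 PCC samples were above all others. The log2 fold change was 3.30 ± 0.60 (SE, adjusted *p* = 0.00187) in PCC vs. WT and 1.39 ± 0.33 (SE, adjusted *p* = 0.0151) in HYP vs. WT. In PCC vs. HYP it was 1.75 ± 0.52 (SE, adjusted *p* = 0.0611), not called.

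*Tm4sf1*, a tetraspanin-like surface protein of endothelial projections, was at 11.4, 11.6, 4.92, 5.80 and 5.84 CPM in the 5 WT samples, 18.1, 25.3, 13.3, 15.0 and 16.2 CPM in the 5 HYP samples, and 13.8, 44.4, 27.7, 25.4 and 29.4 CPM in the 5 PCC samples. HYP and PCC were above WT with no overlap, and PCC replicate 2 was highest. edgeR gave a log2 fold change of 1.79 ± 0.36 (SE, adjusted *p* = 0.00297) in PCC vs. WT and 1.14 ± 0.28 (SE, adjusted *p* = 0.0152) in HYP vs. WT.

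The other surface and junction genes had lower means in PCC than in WT. *Emcn*, the sialomucin endomucin of venous and capillary endothelium, was at 107, 103, 69.1, 96.6 and 80.7 CPM in the 5 WT samples, 48.7, 51.5, 81.8, 48.2 and 39.3 CPM in the 5 HYP samples, and 27.4, 26.7, 42.5, 20.1 and 44.9 CPM in the 5 PCC samples. PCC was below WT with no overlap, and HYP replicate 3, at 81.8 CPM, was the one HYP sample within the WT range. On the log2 scale, the change was -1.52 ± 0.24 (SE, adjusted *p* = 0.000927) in PCC vs. WT. In HYP vs. WT it was -0.76 ± 0.20 (SE, adjusted *p* = 0.0238), a call lost without WT replicate 1 or 4 (adjusted *p* up to 0.0526), and in PCC vs. HYP it was -0.87 ± 0.27 (SE, adjusted *p* = 0.0716), not called. *Egfl7*, a matrix protein secreted by endothelium, had a log2 fold change of -1.15 ± 0.30 (SE, adjusted *p* = 0.0117) in PCC vs. WT, from 49.5 ± 8.95 to 22.7 ± 10.8 CPM (SD, n = 5 each). In HYP vs. WT it was -0.56 ± 0.17 (SE, adjusted *p* = 0.0368), a call kept only without HYP replicate 1 or WT replicate 5. *Rasip1*, a Ras-interacting protein needed for vessel lumens, had one of -0.79 ± 0.26 (SE, adjusted *p* = 0.0335) in PCC vs. WT, lost without PCC replicate 2, 3 or 4 or WT replicate 1 or 2. *Plvap*, the protein of fenestral diaphragms, missed the threshold in PCC vs. WT at -0.77 ± 0.31 (SE, adjusted *p* = 0.0882), with an unadjusted normal 95% interval of -1.38 to -0.16.

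The coagulation genes moved in opposite directions. *Vwf*, von Willebrand factor, stored in endothelial granules, was at 20.7, 20.7, 14.2, 12.1 and 9.16 CPM in the 5 WT samples, 25.8, 21.9, 13.3, 21.7 and 25.1 CPM in the 5 HYP samples, and 60.0, 50.3, 46.9, 32.9 and 30.3 CPM in the 5 PCC samples. PCC was above both other groups with no overlap, while WT and HYP overlapped. Fitted by edgeR, the log2 fold change was 1.48 ± 0.28 (SE, adjusted *p* = 0.0023) in PCC vs. WT. In PCC vs. HYP it was 0.89 ± 0.25 (SE, adjusted *p* = 0.0468), a call kept only without PCC replicate 4 or 5. *Thbd*, thrombomodulin, the endothelial anticoagulant receptor, went from 24.5 ± 10.7 CPM in WT to 8.82 ± 4.78 CPM in PCC (SD, n = 5 each), a log2 fold change of -1.51 ± 0.43 (SE, adjusted *p* = 0.02), with WT replicate 5 below PCC replicates 3 and 5.

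*Icam1*, the leukocyte adhesion receptor induced on activated endothelium, was at 45.8, 65.6, 14.2, 18.5 and 6.86 CPM in the 5 WT samples, 9.93, 9.94, 7.27, 9.61 and 8.10 CPM in the 5 HYP samples, and 4.10, 5.75, 8.0, 3.23 and 12.4 CPM in the 5 PCC samples. WT replicates 1 and 2 were far above all other samples, and WT replicate 5 was within the MENX range. The log2 fold change was -2.22 ± 0.60 (SE, adjusted *p* = 0.0156) in PCC vs. WT and -1.74 ± 0.48 (SE, adjusted *p* = 0.028) in HYP vs. WT, the latter lost without HYP replicate 2, 3, 4 or 5 or WT replicate 1 or 2 (adjusted *p* up to 0.0624). *Erg* encodes an ETS transcription factor of endothelium. In WT, HYP and PCC, the mean levels were 17.0 ± 2.02, 12.1 ± 1.82 and 9.75 ± 2.18 CPM (SD, n = 5 each). *Erg* was called lower in PCC vs. WT at -0.83 ± 0.20 (SE, adjusted *p* = 0.00854) and not in HYP vs. WT at -0.51 ± 0.17 (SE, adjusted *p* = 0.0609). *S1pr1*, the sphingosine 1-phosphate receptor that stabilises endothelial junctions, was listed for PCC vs. HYP only. It was at 85.5, 67.6, 129, 128 and 107 CPM in HYP and 60.6, 23.7, 59.3, 19.0 and 42.1 CPM in PCC, with all PCC samples below all HYP samples and PCC replicates 2 and 4 lowest. Its log2 fold change was -1.46 ± 0.35 (SE, adjusted *p* = 0.0287), lost without PCC replicate 2 or HYP replicate 3, 4 or 5 (adjusted *p* up to 0.0785).

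Of the 3 lymphatic genes listed in PCC vs. WT, 2 were called lower and 1 higher. *Prox1*, the transcription factor that specifies lymphatic endothelium, was at 128, 98.5, 74.2, 36.8 and 75.3 CPM in the 5 WT samples, 69.7, 72.9, 48.6, 63.5 and 61.7 CPM in the 5 HYP samples, and 31.0, 11.4, 26.1, 4.34 and 37.7 CPM in the 5 PCC samples. PCC was below HYP with no overlap, WT replicate 4 was below the highest PCC sample, and PCC replicates 2 and 4 were lowest. edgeR gave a log2 fold change of -1.93 ± 0.52 (SE, adjusted *p* = 0.0141) in PCC vs. WT and -1.63 ± 0.47 (SE, adjusted *p* = 0.0525) in PCC vs. HYP, the latter not called. *Lyve1*, a hyaluronan receptor of lymphatic and sinusoidal endothelium, was at 51.9, 44.6, 38.4, 49.7 and 53.8 CPM in WT and 27.9, 16.0, 28.8, 7.57 and 37.9 CPM in PCC, with no overlap. Its log2 fold change was -1.04 ± 0.35 (SE, adjusted *p* = 0.0396), a call kept only without PCC replicate 1, 4 or 5. *Pdpn*, podoplanin, which other cells than lymphatic endothelium also express, was at 0.101, 0.413, 0.264, 0.319 and 1.56 CPM in WT and 1.52, 1.98, 2.94, 0.675 and 2.91 CPM in PCC. WT replicate 5 was above PCC replicates 1 and 4. On the log2 scale, the change was 1.93 ± 0.64 (SE, adjusted *p* = 0.0368), a call kept only without PCC replicate 4 or WT replicate 5, and 2.80 without the latter.

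Per length of transcript, as FPKM, the order of the members' levels differed between groups. In WT, *Emcn* led with 59.3 ± 12.6 FPKM (SD, n = 5), followed by *Plvap* at 50.8 ± 19.6, *Flt4* at 46.4 ± 13.9, *Kdr* at 40.2 ± 2.47 and *Rgs5* at 32.5 ± 6.94 FPKM, and each differed from the next by less than the larger of their SDs, except *Kdr* from *Rgs5*. *Pgf* was at place 25 of the 28 members with WT values, at 0.774 ± 0.403 FPKM. In HYP, *Rgs5* led with 138 ± 35.6 FPKM, and *Pgf* was at place 20 of 24, at 2.44 ± 0.505 FPKM. In PCC, *Rgs5* led with 1823 ± 1180 FPKM and *Pgf* followed with 40.8 ± 39.7, with *Plvap* at 36.6 ± 14.1, *Emcn* at 25.4 ± 9.54 and *Kdr* at 20.6 ± 8.65 FPKM. The places of *Pgf*, *Plvap* and *Emcn* in PCC did not differ beyond their spread.

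Across the 22 members with values in all samples, the group means were in the order WT, HYP, PCC from low to high for 7 (*Angptl6*, *Angptl7*, *Apln*, *Pgf*, *Rgs5*, *Tm4sf1* and *Vwf*). They were in that order from high to low for 12 (*Angpt1*, *Egfl7*, *Emcn*, *Erg*, *Flt4*, *Icam1*, *Kdr*, *Prox1*, *Ptprb*, *Tek*, *Tie1* and *Vegfc*). *Esm1* and *Flt1* had their lowest mean in HYP and *Angptl2* its highest. The share of all genes in each order was not taken. A gene has values in all samples only if it was listed as changed in at least 2 comparisons, so these counts are a description only. The order changed for *Angpt1* without WT replicate 5 (a WT mean of 5.58 CPM, below the HYP mean of 8.31 CPM) or HYP replicate 1 or 5, and for *Ptprb* without PCC replicate 1, *Flt1* without PCC replicate 3 and *Angptl2* without WT replicate 4. In bulk tissue, fewer cells of a type and less RNA per cell cannot be told apart.

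To compare endothelial genes with each other without a scale between samples, their reads were divided by those of *Kdr* in the same sample, a step chosen after the values were seen, for *Flt1*, *Tek*, *Tie1*, *Emcn*, *Esm1* and *Vwf*. Over the 18 comparisons, two-sided exact permutation tests of log2 ratios were adjusted together, and the smallest *p* that 5 against 5 samples allow is 0.00794. *Flt1* reads per *Kdr* read were 0.409, 0.476, 0.414, 0.464 and 0.377 in WT, 0.342, 0.511, 0.430, 0.440 and 0.489 in HYP, and 0.695, 0.584, 0.755, 0.830 and 0.560 in PCC. Every PCC sample was above every other sample, and WT and HYP overlapped. The log2 difference was 0.67 in PCC vs. WT and 0.63 in PCC vs. HYP (exact *p* = 0.00794, adjusted *p* = 0.0238 for each), and 0.04 in HYP vs. WT (exact *p* = 0.754).

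In WT, HYP and PCC, *Esm1* was at 0.0140 ± 0.00358, 0.0146 ± 0.00590 and 0.117 ± 0.0457 reads per *Kdr* read (SD, n = 5 each). The PCC samples, from 0.0807 to 0.197, were all above the highest of the others, 0.0245, with a log2 difference of 3.04 from WT and 3.02 from HYP. In the same order, *Vwf* was at 0.0748 ± 0.0265, 0.181 ± 0.0563 and 0.614 ± 0.404 (SD, n = 5 each), a log2 difference of 2.89 in PCC vs. WT. For both genes these differences are a description, since their PCC reads were already above and those of *Kdr* below WT in every sample. Their small *p* entered the joint adjustment and made the adjusted *p* of *Flt1* and *Tek* smaller than it would be without them. *Tek* was at 0.480 ± 0.0314 in WT and 0.302 ± 0.0999 in PCC (SD, n = 5 each) with no overlap, a log2 difference of -0.73 (exact *p* = 0.00794, adjusted *p* = 0.0238). The log2 fold changes in PCC vs. WT were -0.63 for *Flt1*, -1.29 for *Kdr* and -1.95 for *Tek*. They already gave the direction of both ratios, so the small *p* of *Flt1* and *Tek* is not independent evidence. *Flt1* was higher only relative to *Kdr*, and its mean CPM was lower in PCC than in WT. For *Tie1* and *Emcn* the log2 differences in PCC vs. WT were 0.21 and -0.20 and missed the threshold (exact *p* = 0.405 and 0.373).

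**Figure D4:**
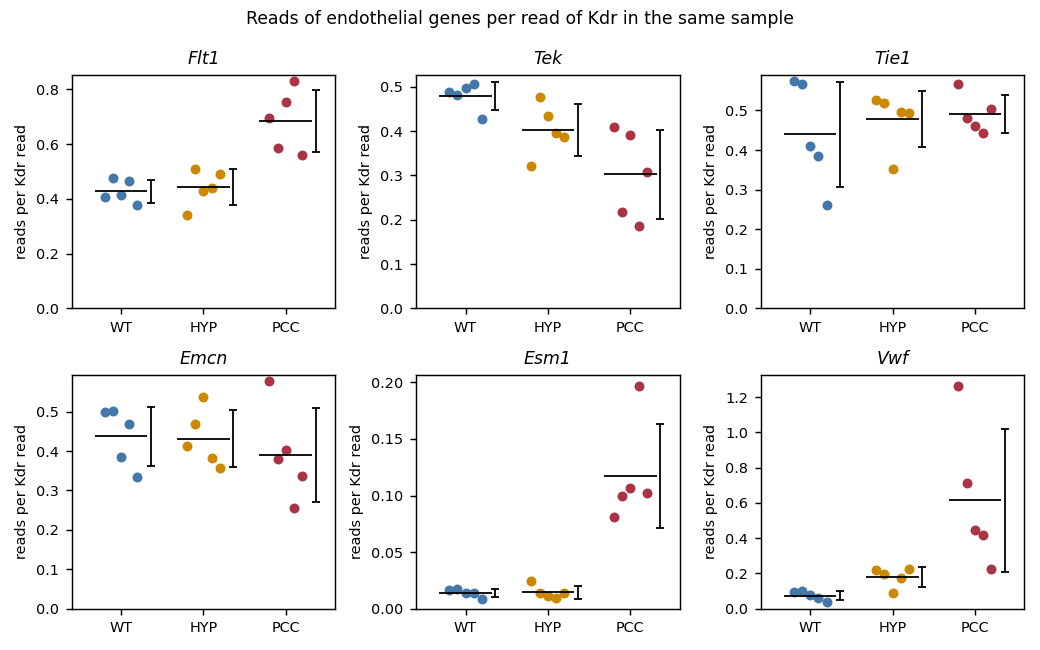
Reads of 6 endothelial genes per *Kdr* read in the same sample (points, linear y axes from 0) by group, with the mean as a line and the SD as a bar (n = 5 each). Per *Kdr* read, *Flt1*, *Esm1* and *Vwf* are higher and *Tek* is lower in all PCC samples than in the WT samples, while *Tie1* and *Emcn* overlap between all groups.

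Markers of other cell types moved with the groups as well. A list's level in each sample was taken as the ratio of CPM to the mean of WT, with the median over the genes that all 15 samples have. Such genes are only those listed as changed in these same samples. A move of a level is therefore not independent evidence of more or fewer cells of a type. The adrenal cortex level (10 of 15 markers) was from 0.703 to 1.33 in WT, 0.283 to 0.595 in HYP and 0.0247 to 0.347 in PCC, and the summed cortex markers were at 29780 to 57897, 12911 to 32888 and 951 to 14664 CPM. The chromaffin level (9 of 12 markers) was from 0.285 to 1.54 in WT, 1.85 to 2.56 in HYP and 3.41 to 5.47 in PCC, and the summed markers were at 1869 to 9400, 10484 to 14709 and 17424 to 36879 CPM. In PCC vs. WT, 10 of 12 cortex markers were called lower, and 9 of 9 chromaffin markers higher. The endothelial level (5 of 8 markers) was from 0.832 to 1.09 in WT, 0.527 to 0.729 in HYP and 0.295 to 0.639 in PCC. It covers *Kdr*, *Flt1*, *Tek*, *Tie1* and *Emcn*, while *Pecam1*, *Cdh5* and *Esam* had no values here. Endothelial genes outside this list went both ways in PCC vs. WT. Among them *Vwf* (1.48), *Esm1* (1.79) and *Cd34* (1.20) were called higher, and *Egfl7* (-1.15), *Erg* (-0.83) and *Rasip1* (-0.79) lower. The endothelial level therefore does not stand for endothelial genes as a whole. The lymphatic level (2 of 4 markers, *Prox1* and *Flt4*) was from 0.899 to 1.13 in WT, 0.632 to 0.768 in HYP and 0.0791 to 0.426 in PCC. Of the 4 lymphatic markers, 3 were called lower and 1, *Pdpn*, higher in PCC vs. WT. *Pdpn* and *Lyve1* had no HYP values and are not in this level. The pericyte level (3 of 6 markers, *Rgs5*, *Notch3* and *Kcnj8*) was from 0.734 to 1.32 in WT, 1.01 to 2.35 in HYP and 1.08 to 7.79 in PCC. In PCC vs. WT, *Rgs5* and *Notch3* were called higher and *Kcnj8* lower, so this level does not stand for the 3 markers as a set. PCC replicates 2 and 4, lowest of the PCC samples for *Tek*, *Emcn*, *Flt4*, *Prox1*, *Lyve1*, *Angpt1*, *Angptl2* and *S1pr1*, were also lowest in the cortex level. *Kdr*, *Flt1* and *Tie1* were lowest in PCC replicate 1. None of the markers used was at 0 in any sample. The part of the shift from cortex to chromaffin RNA in the members' values was not tested.

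**Figure D5:**
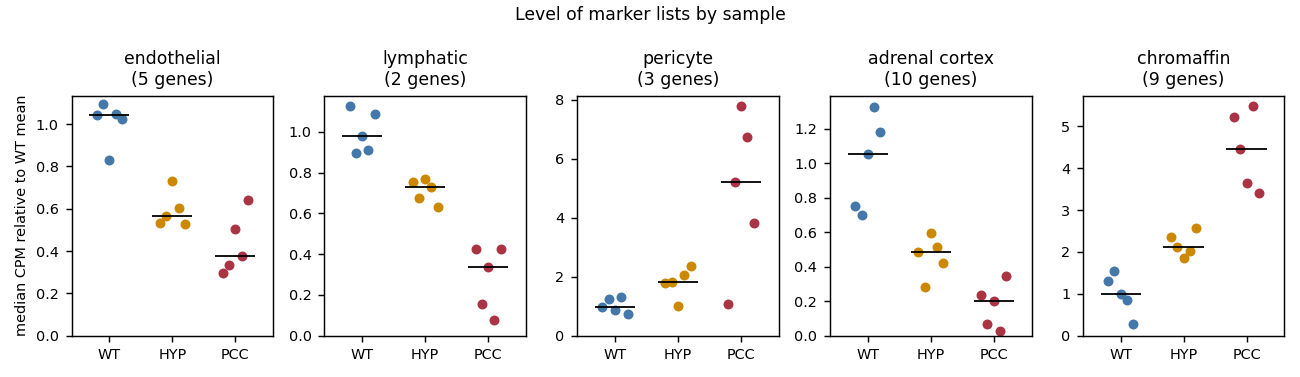
Level of 5 marker lists in each sample (points, y axes from 0, as the median over the genes of CPM relative to the WT mean), with the group median as a line and the number of genes in the title. The endothelial, lymphatic and cortex levels of all PCC samples lie below those of WT, and chromaffin levels are higher. Only markers listed as changed in these same samples enter a level. The endothelial, lymphatic and pericyte levels do not stand for all genes of those cells, some of which went the other way.

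Beyond the members, a list of 99 other genes of vessel growth, vessel walls and flow was examined. In PCC vs. WT, 46 of its genes were tested, and 19 were called higher (41.3%, against 46.7% of all genes tested) and 14 lower (30.4%, against 38.5%). The median log2 fold change was 0.90, against 0.44 for all genes tested. In HYP vs. WT, 13 of 29 were called higher (44.8%, against 39.5%) and 10 lower (34.5%, against 32.5%), with a median of -0.47, against -0.37. In PCC vs. HYP, 8 of 18 were called higher (44.4%, against 21.8%) and 3 lower (16.7%, against 22.6%), with a median of 0.94, against 0.43. The genes named from this list were chosen after their values were seen. *Cd34*, a sialomucin of endothelial and progenitor cells, rose in HYP vs. WT (0.72, adjusted *p* = 0.0235) and in PCC vs. WT (1.20, adjusted *p* = 0.024), with means of 5.17 ± 0.890 in WT, 8.57 ± 1.13 in HYP and 12.1 ± 5.31 CPM in PCC (SD, n = 5 each). *Epas1*, which encodes HIF2α, rose in PCC vs. WT (3.64, adjusted *p* = 0.000151). The Notch ligand gene *Jag2* (2.46, adjusted *p* = 0.000657) and the arterial connexin gene *Gja5* (3.67, adjusted *p* = 0.00412) also rose in PCC vs. WT, and the arterial ephrin gene *Efnb2* fell (-1.41, adjusted *p* = 0.00176). *Gja5* was barely detected in WT, with means of 0.137 ± 0.0812 in WT and 1.85 ± 1.67 CPM in PCC (SD, n = 5 each). *Jag1* (0.69, adjusted *p* = 0.0574), *Heyl* (0.88, adjusted *p* = 0.0685) and *Gja4* (1.14, adjusted *p* = 0.0839) missed the threshold. *Gpihbp1*, which carries lipoprotein lipase, rose (4.11, adjusted *p* = 0.000493), and the adhesion receptor gene *Adgrf5* fell (-1.26, adjusted *p* = 0.0044). *Gpihbp1* too was barely detected in WT, with means of 0.133 ± 0.0745 in WT and 2.49 ± 1.72 CPM in PCC (SD, n = 5 each). The flow-responsive factors *Klf4* (-4.09, adjusted *p* = 0.00442) and *Klf2* (-2.72, adjusted *p* = 0.0233) fell in PCC vs. WT. Their WT samples spread widely, at 192 ± 168 and 109 ± 95.7 CPM (SD, n = 5 each), and for both genes PCC overlapped WT.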

How the data were processed

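The authors sequenced poly(A) RNA in paired-end reads, mapped them to Rn06 with HISAT2 2.0.5 and counted them with featureCounts 1.5.0-p3, per the labels and methods. Each deposited table holds, for the genes the authors had called between 2 groups with DESeq2, raw read counts, the size-factor normalised signal and the FPKM per sample. The authors' p-values served only to recover how many genes they had tested (18790 in PCC vs. WT, 18057 in HYP vs. WT, 17454 in PCC vs. HYP), and their fold changes were not used.

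Counts were analysed with edgeR 4.0.16 (R 4.3.3): TMM over the listed genes, filterByExpr, then glmQLFit and glmQLFTest, with 1 fit per comparison. The Benjamini-Hochberg adjustment was over these numbers of genes, so the adjusted *p* is an upper bound, and genes under 0.05 were called. The SE is the log2 fold change divided by the square root of F. Library totals were recovered from count, FPKM and length. The fit was tested on simulated data. Promoter windows came from RefSeq.

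The members and lists were chosen with earlier results of these data known. The rule for named genes took the defining markers and, in each comparison, the 8 called members with the largest changes at an average of at least 1 CPM, and other members by role. The marker lists of smooth muscle, fibroblast, sustentacular and Schwann, macrophage and leukocyte, adipocyte and erythroid cells are given with the other observations. Replicates are separate animals, and no 2 samples agreed within sampling noise. Alternatives were DESeq2 1.42.0, other scalings, filters and adjustment, a replicate block, 1 fit of all samples and leaving out each sample.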

Additional observations from a re-analysis of the deposited data

Results flagged for a closer look

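In 6 of the 80 groups of 5 samples tested over the members, 1 sample stood farther from the others than Dixon's limit for 5 samples, where chance gives about 1 in 20. *Pgf* in PCC replicate 4 was at 155 CPM where the next PCC sample was at 43.8 CPM. *Angpt1* in WT replicate 5 was at 20.4 CPM where the next was at 8.04 CPM, and *Pdpn* in the same sample was at 1.56 CPM where the next was at 0.413 CPM. In HYP replicate 3, *Emcn* was at 81.8 CPM with the next at 51.5 CPM, and *Vegfc* was at 33.2 CPM with the next at 22.5 CPM. *Angptl6* in HYP replicate 1 was at 4.13 CPM, with the next at 2.49 CPM. All 6 were high values.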

How the results depend on the processing

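No named member changed direction under any of the alternatives: of 546 values under other settings, 446 kept their side of the threshold, 57 lost it and 43 gained it, and of 560 with 1 sample left out the numbers were 476, 72 and 12. The counts did move. Members called lower in PCC vs. WT were 4 with scaling to the listed total and 7 with the library totals, and those in HYP vs. WT were 1 and 3, where the median was -0.14 with the listed total. In PCC vs. HYP, 7 were called lower by DESeq2 and 7 with adjustment over the listed genes, against 44.1% and 44.5% of all genes. With 1 fit of all 15 samples, 2 were called higher in HYP vs. WT, against 38.8% of all genes. The median in PCC vs. HYP turned to 0.0046 with at least 10 counts in every sample and to 0.15 with 1 fit of all 15 samples, both of which test 12 of the 13 members.

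The share of higher calls over all genes was 54.8% in PCC vs. WT, 76.3% with the listed total and 68.9% with library totals. In HYP vs. WT it was 54.8%, 89.3% and 75.8%. In PCC vs. HYP it was 49.2%, 68.4% and 70.7%, and 34.2% with DESeq2's and 61.3% with the authors' size factors. The listed total moved the median of all genes in the same order of comparisons by 0.50, 0.46 and 0.15 in log2, and library totals by 0.29, 0.19 and 0.22.

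Replicate numbers did not pair the samples, since correlations of the deviations of same-numbered samples ran from -0.24 to 0.25. With the replicate block, 5 members were called lower in HYP vs. WT, against 23.7% of all genes tested. In PCC vs. HYP (edgeR), 2 were called higher and 0 lower, against 6.42% and 5.21% of all genes tested. There 6 members higher and 7 lower had an unadjusted *p* under 0.05, with the block as without it.

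Leaving out 1 sample gave 8 to 9 higher and 11 to 15 lower calls in PCC vs. WT, against 38.0% to 45.5% and 31.4% to 38.7% of all genes. In HYP vs. WT it gave 4 to 5 and 5 to 8, against 28.2% to 43.1% and 19.1% to 34.0%. In PCC vs. HYP it gave 3 to 5 and 0 to 5, against 7.50% to 27.3% and 5.87% to 28.5%. The members' medians in the same order of comparisons were from -1.01 to -0.80, -0.67 to -0.54 and -1.03 to -0.70. Of the reads per *Kdr* read, the log2 difference in HYP vs. WT ran from -0.016 to 0.13 for *Flt1*, -0.0091 to 0.28 for *Tie1*, -0.11 to 0.046 for *Emcn* and -0.19 to 0.16 for *Esm1*, and in PCC vs. HYP from -0.057 to 0.087 for *Tie1*, none of them called. Genes outside the tables were not analysed here, and 5 animals a group limit the precision.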

Other observations

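Markers of smooth muscle cells and fibroblasts were higher in PCC vs. WT where they were called (edgeR, adjusted *p*), and those of the other cell types went both ways. Of the 2 smooth muscle markers listed, the actin gene *Acta2* was called higher at a log2 fold change of 1.65 (adjusted *p* = 0.018) and the myosin gene *Myh11* was at 0.93 (adjusted *p* = 0.0688). All 3 fibroblast markers listed, the collagen genes *Col1a1*, *Col1a2* and *Col3a1*, were called higher at 1.35, 1.51 and 1.29. Of 6 sustentacular and Schwann cell markers, 4 were called higher and 2 lower, and the only macrophage and leukocyte marker listed, the scavenger receptor gene *Cd163*, was called higher at 1.30. The only adipocyte marker listed, *Cidea*, was called lower at -2.26, and no erythroid marker was listed.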
